A study of Danio rerio with 2 samples.

Results

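Interior dense clusters were places where at least 10 accessible sites lay close together along the body of a chromosome, away from its ends. They were taken from the ATAC-seq peaks of wild-type Tubingen zebrafish embryos at 4 hpf (hours post fertilization), left untreated, which formed the only group. Tubes held about 300 embryos, and the authors pooled the 2 biological replicates into 1 peak list, so a peak has 1 position and 1 score and no value per replicate. Peaks on chromosomes 1 to 25 without chromosome 4 were joined when the gap between their edges was at most 5 kb, and joined regions of 10 or more peaks were kept when they lay wholly over 1 Mb from position 0 and from the last peak end of their chromosome. This gave 296 clusters with 4306 member peaks, which were 5.55% of the 77524 peaks on these 24 chromosomes and belonged to a whole list of 84715 peaks.

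ATAC-seq uses a transposase that inserts sequencing adapters into DNA not wrapped by nucleosomes, so that promoters, enhancers and other bound sites appear as peaks. At this stage the zygotic genome has just begun to be transcribed, and pluripotency factors of the Pou5f3, Sox and Nanog families are known to open many regulatory sites. Neighbouring enhancers are often grouped into stretches, the largest of which are called super-enhancers, and close spacing of accessible sites is one feature of such stretches. Sequence present in many near-identical copies can also give rows of peaks. The list contains neither gene names nor sequence, and no gene annotation or genome sequence of its Zv10 build was used here, so clusters are given by position and no gene, promoter or motif is assigned to them.

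The members were chosen by the measured number, spacing and position of peaks. Spacing was measured between peak edges, so wider peaks left shorter gaps and were joined more readily. Cluster counts, lengths, gaps, covered shares, peak widths and positions are therefore descriptions of what was chosen. The score (the authors' value per peak, scale not named, lowest value in the list 20) was not part of the rule, but it comes from the same pooled list. No test across samples could be made for any value below, and intervals given for peaks or clusters cover counting error only, since peaks are places in 1 list and not replicates. The depth per replicate is unknown because the list holds no read counts.

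Dense clusters were short stretches of densely packed open chromatin. The clusters had a median length of 34.0 kb (95% order-statistic interval 32.5 to 35.9 kb over 296 clusters), and the middle 50% lay between 27.3 and 46.0 kb. The shortest was 16.4 kb, on chromosome 22 from 10633091 to 10649500, where 10 peaks gave the highest packing of any cluster at 6.09 peaks per 10 kb. The longest was 205 kb, on chromosome 5 from 42486751 to 42691950, with 18 peaks. All clusters together spanned 12.5 Mb, or 1.03% of the 1216 Mb of interior length, and held 5.98% of the interior peaks.

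Many clusters were small, with a median of 12 peaks. Exactly 10 peaks were found in 89 clusters, 11 in 44 and 12 in 35, while 55 held 15 to 19 peaks, 34 held 20 to 29 and 10 held 30 or more. Values on both sides of the limit were close. The 96 interior joined regions of 9 peaks had a median length of 24.0 kb, a median covered share of 37.3% and a median of their median scores of 179. The 89 clusters of 10 peaks had 26.7 kb, 39.7% and 198.

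**Figure D1:**
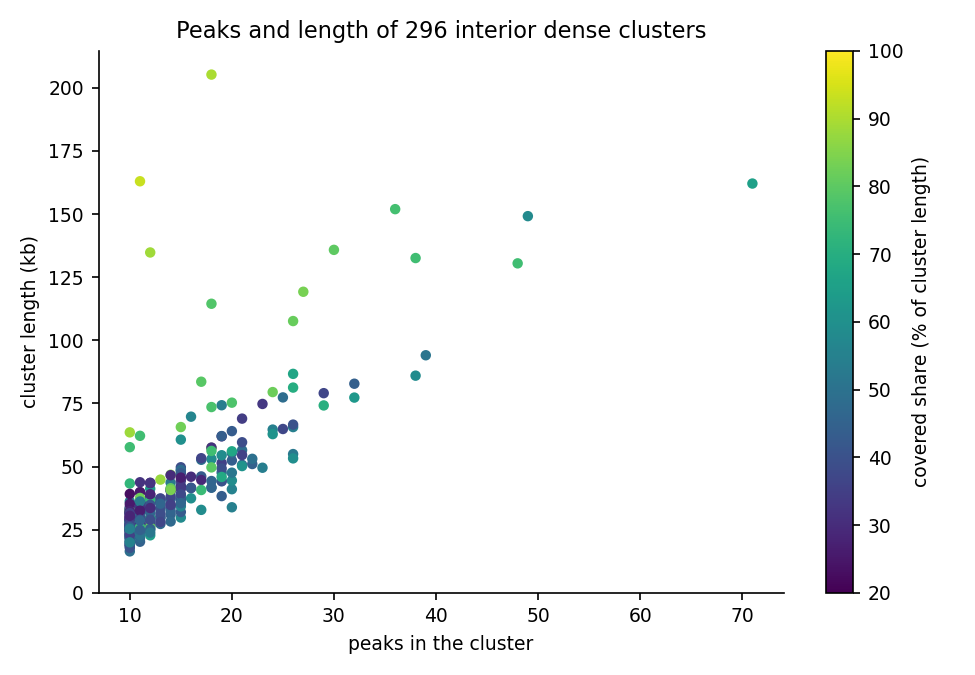
Number of peaks (x axis) against length in kb (y axis) of each of the 296 clusters, one point a cluster, coloured by the share of its length covered by peaks. Most points lie below 50 kb, and 3 clusters of 11 to 18 peaks reach 135 to 205 kb, with single peaks in them up to 97.0 kb wide.

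The other limits of the rule left some clusters close to them. Beyond the edge of a cluster the next peak lay a median of 9.37 kb away over the 592 cluster sides, with a smallest gap of 5.01 kb. On 99 sides the gap was at most 6 kb, so that 93 clusters would have been longer with a joining distance of 6 kb. Inside the clusters, 157 had at least 1 gap over 4 kb, and 15 had no gap over 2 kb. The interior cluster nearest to a chromosome end began or ended 1.09 Mb from it, while the dense region left out for its position that lay farthest from an end was 0.747 Mb away.

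Within the clusters, peaks and gaps took up similar lengths of DNA. Peaks covered 51.8% of the summed length of the clusters, or 6.46 of 12.5 Mb, against 5.38% of the remaining interior length. Joining close peaks itself produces a contrast of this kind. The median covered share of a cluster was 43.9% (95% order-statistic interval 42.1 to 45.5%), with a range from 23.0 to 93.2%. In interior joined regions of 5 to 9 peaks it was 37.9%, so the clusters stood only moderately above smaller joined regions. The gap between adjacent member peaks had a median of 1080 bp over 4010 gaps, and the middle 50% lay between 450 and 2240 bp. Among the 27548 gaps of up to 5 kb between other interior peaks, the median was 1670 bp. Gaps under 500 bp made up 28.0% of the gaps in clusters and 19.4% of the others. Gaps over 3 kb made up 14.4% and 25.5%.

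Peaks were wider in the clusters, and summits only slightly nearer to each other. A summit is the point of strongest signal in a peak, and adjacent summits in clusters were a median of 2560 bp apart, against 2700 bp in other joined regions. Member peaks had a median width of 910 bp, with the middle 50% between 650 and 1470 bp. Other interior peaks had 720 bp, with the middle 50% between 580 and 1000 bp. The median width of members was higher in 24 of 24 chromosomes, but joining by peak edges itself favours wide peaks. Peaks wider than 5 kb made up 2.81% of the members (121 peaks) and 0.787% of the others (533 peaks). Within the clusters the gap also became shorter with size, from a median of 1310 bp in clusters of 10 to 14 peaks to 1065 bp in those of 15 to 19 and 755 bp in those of 20 or more, while the median distance between summits went from 2650 to 2470 bp.

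Member peaks scored higher than other interior peaks. Their median score was 222.5 (95% order-statistic interval 214 to 235), with the middle 50% between 114 and 673, and the lowest and highest were 26 and 271272. The 67715 other interior peaks had a median of 124 (124 to 125), with the middle 50% between 76 and 259. The ratio of medians was 1.79, and 71.3% of members (3070 of 4306, exact binomial 95% interval 69.9 to 72.6%) scored above the median of the others. The distributions overlapped widely, as 20.0% of members and 39.1% of the others scored under 100. At the upper end, 17.0% of members (732 peaks) scored at least 1000, against 4.47% of the others (3029 peaks). In each of the 24 chromosomes the median of members was above that of the others. The ratio ran from 1.31 on chromosomes 20 and 24 up to 4.32 on chromosome 25 and 4.78 on chromosome 7. On chromosome 7, 71 of the 253 members lay in 1 cluster with a median score of 877, so that ratio leans on a single cluster.

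The score rose step by step with the number of peaks in the joined region, also below the limit of 10. Median scores were 108 for 25702 single peaks, 125 for peaks in pairs, 134 in regions of 3 to 4 and 158 in regions of 5 to 9. Among the members they were 181 in clusters of 10 to 14 peaks, 236 in those of 15 to 19 and 336.5 in those of 20 or more. The share of peaks scoring at least 1000 went from 2.64% of single peaks to 8.60% in regions of 5 to 9 and 26.1% in clusters of 20 or more. Median peak width rose over the same classes, from 670 bp for single peaks to 1060 bp in clusters of 20 or more. The high scores of the clusters stood at the upper end of a gradual change with region size. Given equal weight, the 296 clusters had a median of their median scores of 204, and 249 of them (84.1%) had a median above 124. Interior regions of 5 to 9 peaks had a median of their median scores of 161, also above 124. Their share above 124 was not computed, so the 84.1% is not shown to be particular to the clusters.

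**Figure D2:**
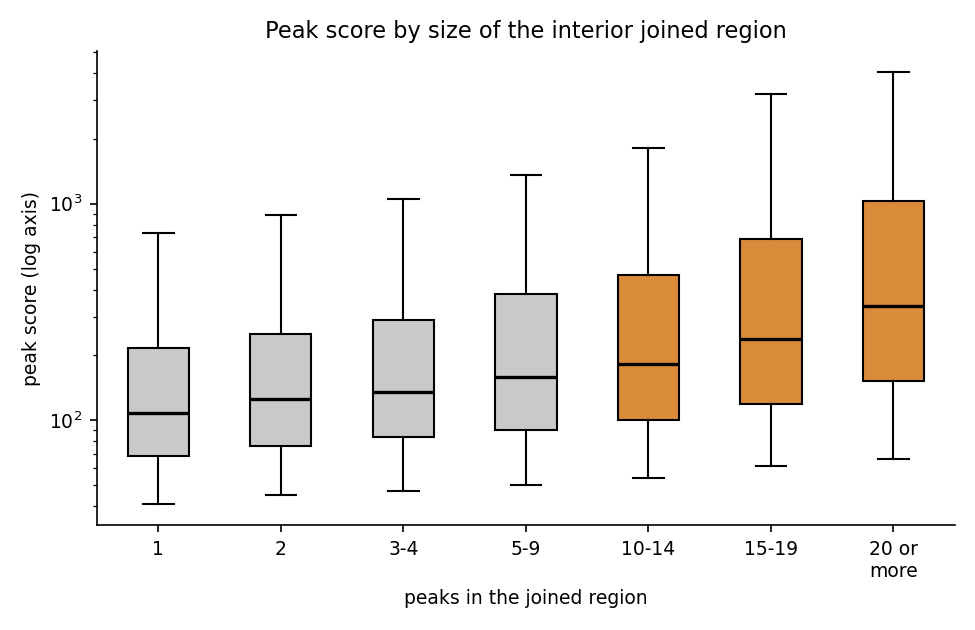
Score of interior peaks (y axis, log scale, authors' units) by the number of peaks in their joined region (x axis), with member peaks of dense clusters in orange. Lines in the boxes are medians, boxes the middle 50% and whiskers the 5th and 95th percentiles of peaks. Medians run from 108 for single peaks to 336.5 in clusters of 20 or more.

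Part of this difference went with width, since wider peaks had higher scores among the members. Within classes of width the members still stood higher. Among peaks of 500 to under 600 bp the median score was 120.5 for 742 members and 91 for 19120 others. Among those of 800 to under 1200 bp it was 211 and 150, and among those of 1200 to under 2000 bp 361 and 222. Broad peaks differed most. Between 2 and 5 kb the 554 members had a median of 907 and the 3192 others 199, and above 5 kb the 121 members had 3056 and the 533 others 190. Outside the clusters, medians of these broad classes were below that of peaks of 1200 to 2000 bp, whereas inside them peaks above 5 kb had the highest median of the width classes. Without peaks wider than 5 kb on either side, the ratio of medians over the same members was 1.73 (215 against 124).

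A few clusters held much of the summed score of the members. Members made up 5.98% of interior peaks and held 12.5% of the summed interior score, or 13% when peaks scoring at least 10000 were left out. The 10 clusters with the largest summed score held 43.6% of the score of all members. Scores of at least 10000 were found for 33 members (0.766%), all of them in 18 clusters, against 99 of the other interior peaks (0.146%). A total of 235 clusters held neither a peak scoring at least 10000 nor one wider than 5 kb. These had a median length of 31.6 kb and a median covered share of 40.5%, and their 3115 peaks had a median score of 183, still above the 124 of other interior peaks.

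Clusters also scored above their own surroundings. For each cluster the peaks within 100 kb on either side that belonged to no dense region were taken, and 293 clusters had at least 5 of them. The cluster had the higher median score in 230 of the 293 (78.5%), with a median ratio of 1.45. It was at least 2-fold higher in 100 clusters and at most 0.5-fold in 4. The median of the surrounding medians was 131.5, close to the 124 of all other interior peaks. Density was high around the clusters as well, with a median of 95 peaks per Mb in the surrounding 100 kb, against 56.3 over the interior outside clusters and 370 inside a cluster.

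**Figure D3:**
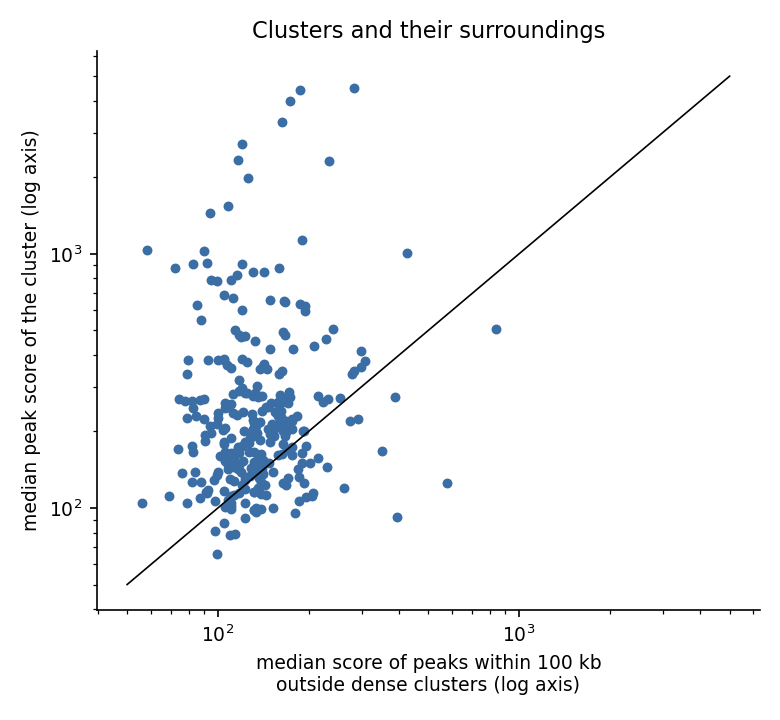
Median score of each cluster (y axis, log scale) against the median score of peaks within 100 kb outside dense regions (x axis, log scale), one point for each of 293 clusters. The line marks equal values, and 230 points lie above it.

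Clusters differed widely in how much of their length was covered. In 65 clusters peaks covered under 35% of the length. Their peaks were narrow, with a median width of 750 bp and a median gap of 2150 bp, and the median of their median scores was 148. In the 139 clusters with 35 to under 50% these values were 840 bp, 1275 bp and 200, and in the 63 with 50 to under 75% they were 1060 bp, 740 bp and 268. In the 29 clusters with 75% or more, peaks had a median width of 1680 bp, gaps a median of 470 bp, and the median score was 551.5. All 33 members scoring at least 10000 lay in clusters covered by 50% or more, 19 of them in those 29. Across the 296 clusters, Spearman's rho was 0.490 between covered share and median score and 0.239 between the number of peaks and median score. Clusters of 1 list are not independent replicates, and both measures share the same peaks and reads.

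**Figure D4:**
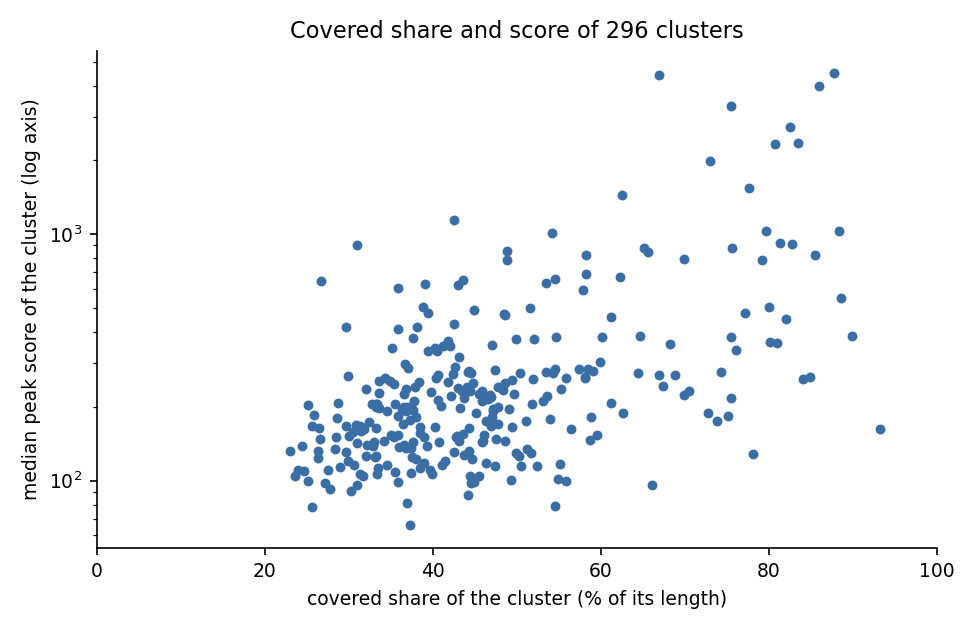
Median peak score of each cluster (y axis, log scale) against the share of its length covered by peaks (x axis, percent), one point for each of the 296 clusters. All but 1 of the 14 clusters with a median score of at least 1000 are covered by more than 50%, while clusters covered by more than 75% occur down to a median score of 128.

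Most of the spread in score lay inside the clusters. On the log2 scale, differences between clusters made up 28.0% of the sum of squares of member scores, and the SD within clusters was 1.56 against 1.78 for all members. The upper quartile of scores in a cluster was a median of 3.32 times the lower quartile. The strongest peak held a median of 26.8% of the summed score of its cluster, more than 50% in 28 clusters and less than 10% in 8. It was the first or last peak in 40 clusters (13.5%), close to the 13.7% of members that were such outer peaks. Pooled over clusters, outer peaks had a lower median score than inner ones, 169 against 233, and were narrower, with 840 against 925 bp. Each cluster gave 2 outer peaks, while large clusters, which scored higher, gave more of the inner ones. The pooled difference is therefore mixed with cluster size, and how much of it goes with size was not tested. Cluster by cluster, the median of the inner peaks was above the mean of the 2 outer ones in 146 of the 296. A median and a mean are unlike measures, so this count does not settle whether outer peaks were weaker.

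Scores of adjacent member peaks were correlated when pairs of all clusters were pooled. Over 4010 adjacent pairs, Spearman's rho was 0.308, against 0.193 over 8369 pairs in interior regions of 5 to 9 peaks. It fell with the gap in both sets. For gaps under 500 bp it was 0.412 in clusters and 0.322 among other interior peaks, and for gaps of 2.5 to 5 kb it was 0.113 and 0.0746. These correlations are across neighbouring places in 1 pooled list, which share reads and depth. Differences in score level between clusters or regions add to them, and no correlation within clusters was computed. Whether neighbours inside a cluster were alike was therefore not tested.

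The clusters with the most peaks were of several kinds. The largest lay on chromosome 7 from 64354601 to 64516660, with 71 peaks in 162 kb that covered 65.1% of its length. Most of its scores were even, with a median of 877 and an upper quartile 1.41 times the lower, although 11 peaks scored only 49 to 294. Its highest score, 1529, was shared by its strongest and second strongest peaks. Each held 2.64% of the summed score, the lowest share for the strongest peak of any cluster. The cluster on chromosome 5 from 52650551 to 52799700 had 49 peaks with a median score of 596 and a strongest peak of 12974. A cluster on chromosome 17 from 27699471 to 27793540 had 39 peaks in 94.1 kb but a low median score of 175, and its strongest peak, 3439, stood far above the next at 878. A pair on chromosome 8, from 34633821 to 34769620 and from 34976781 to 35109340, held 30 and 38 peaks with median scores of 505 and 383.5, covered 80.1 and 75.5% of their length, and included 7 and 6 peaks wider than 5 kb. On chromosome 13 from 15354041 to 15440030, 1 of 38 peaks scored 103374 and held 60.7% of the summed score, although the median was 823.

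Of the other clusters of at least 30 peaks, that on chromosome 16 from 36319481 to 36471400 held 36 peaks with a median score of 337.5 and contained a peak 39.4 kb wide. The cluster on chromosome 19 from 12102241 to 12185040 was the least covered of these large ones, at 44.3%, with 32 peaks of a median score of 278.5 and none wider than 2.54 kb. Another of 32 peaks, on chromosome 21 from 18456911 to 18534220, had a median score of 1445.5 and 3 peaks scoring at least 10000, the highest 46849.

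Of the 3 longest clusters, that on chromosome 7 was long through its 71 peaks, none wider than 10.3 kb, while the other two, and the 3 most covered clusters, held a few very broad peaks. In the 205 kb cluster on chromosome 5 a peak of 97.0 kb took up 47.3% of the length, with a score of 51160, and peaks covered 89.9% in all. The median score of its 18 peaks was 385. The most covered cluster, 93.2% of 163 kb on chromosome 24 from 12261651 to 12424610, had 11 peaks, 5 of them wider than 5 kb. Its median score was 162, and 1 peak of 91753 held 87.6% of the summed score. On chromosome 12 from 14279341 to 14414110, 12 peaks covered 88.6% of 135 kb with a widest peak of 62.1 kb, and the upper quartile of scores was 35.4 times the lower, the largest ratio among the clusters. The highest single score of any member, 271272, belonged to a peak of 23140 bp in a cluster of 27 peaks on chromosome 2 from 14991581 to 15110790, where the median was 2343 and 5 peaks scored at least 10000.

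At the other end stood clusters of small, well separated peaks. The 3 least covered lay on chromosome 9 from 7487581 to 7526740 (23.0%), on chromosome 2 from 36709321 to 36745030 (23.6%) and on chromosome 11 from 3863241 to 3891330 (23.9%). They held 10 or 11 peaks with median widths of 600 to 835 bp, median gaps of 2900 to 4030 bp and median scores of 105 to 132.5. None of their peaks scored above 738. The lowest median scores belonged to clusters on chromosome 12 from 15819331 to 15846490 (66), on chromosome 1 from 26099311 to 26135240 (78) and on chromosome 9 from 24130571 to 24164450 (79). The last of these was densely packed in spite of its low scores, with 20 peaks in 33.9 kb that covered 54.5% of it. In all, 13 clusters had a median score under 100 and 89 had no peak scoring at least 1000.

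Some of the clusters with the highest scores had evenly spaced summits. These clusters, the score limits and the distance windows were chosen after their values were seen, so the spacing is a description. The highest median score, 4491, belonged to 13 peaks on chromosome 11 from 30801581 to 30846410, followed by 4419 for 26 peaks on chromosome 25 from 18683461 to 18770160 and 3981.5 for 18 peaks on chromosome 15 from 7198331 to 7255700. In the last of these, 14 peaks scored from 3111 to 5151, and 12 of the 13 distances between their consecutive summits lay between 4180 and 4350 bp, with a median of 4250 bp. The remaining 4 peaks scored from 76 to 387 and were narrower, with a median width of 875 bp against 3600 bp.

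Similar distances recurred in other clusters. On chromosome 15 from 9808751 to 9939210, 29 of 48 peaks scored from 2622 to 4701 and 25 of their 28 distances lay between 4150 and 4320 bp, with a median of 4230 bp. The first and last peaks of the row were strong, so each of the 19 weaker peaks, with scores of 61 to 440, lay between strong ones. Strong and weak peaks did not alternate strictly. Weak peaks of 187 and 61, and of 440 and 160, were adjacent, and some strong peaks were adjacent too. The neighbouring cluster on chromosome 15 from 9658271 to 9732470 had 13 peaks scoring 2951 to 5264 among 29, and 10 of their 12 distances lay between 4190 and 4260 bp, with a median of 4220 bp. In the cluster on chromosome 11 with the highest median, 8 peaks scored from 3987 to 8971 and 5 of 7 distances lay between 4175 and 4335 bp, with a median of 4250 bp. On chromosome 8 from 30820941 to 30866820, 8 of 19 peaks scored from 3103 to 7341, and 6 of the 7 distances between them lay between 4210 and 4300 bp, with a median of 4255 bp. On chromosome 25 from 18683461 the pattern was looser, with 14 peaks scoring from 4044 to 20938 and 7 of 13 distances between 4110 and 4285 bp.

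Over all 296 clusters, pairs of summits 4100 to 4400 bp apart numbered 490, against 430 for 3800 to 4100 bp and 380 for 4400 to 4700 bp. The window was chosen from the 6 clusters above, which held 33, 18, 12, 10, 8 and 6 of the 490 pairs. These counts are therefore no separate support for that distance. At least 5 such pairs were found in 14 clusters, among them the 6 above and some with low median scores. Large clusters have more pairs at any distance, and the 71-peak cluster on chromosome 7 had 12 in this window. Of the 6 above, those on chromosome 15 from 9658271 and chromosome 8 from 30820941 had median scores of only 231 and 358. Among clusters with a median score of at least 1000, some had 0 pairs in this window. They lay on chromosome 25 from 34592331 (2715), chromosome 2 from 14991581 (2343), chromosome 7 from 64175931 (1031.5) and chromosome 23 from 12855061 (1027.5). Not every cluster with strong peaks had this distance between consecutive strong ones. In the cluster on chromosome 25 from 25134601 to 25214090, 8 of 24 peaks scored from 3111 to 4925 and 0 of the 7 distances between consecutive ones lay between 4100 and 4400 bp. Over all its peaks, however, 5 pairs of summits lay in that window. Its most common distance between any summits was a median of 4200 bp, in 4 pairs.

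Other rows had their own spacing. On chromosome 13 from 25180111 to 25235050, 12 of 26 peaks scored from 990 to 2083. Of the 11 distances between their consecutive summits, 10 lay between 4320 and 5020 bp. Longer and shorter distances mostly alternated, so their median of 4815 bp was not itself a repeated distance. From the start of the cluster, these summits began at 3.006, 7.966, 12.326, 17.321 and 21.676 kb. The most common distance between any summits of the cluster was a median of 9342.5 bp, in 10 pairs that joined 16 of the 26 peaks. There the strong peaks were the narrow ones, with a median width of 710 bp against 1390 bp for the 14 weaker peaks, which scored from 52 to 439. This is the reverse of the rows on chromosome 15. In the 71-peak cluster on chromosome 7, 60 peaks scored at least 500, within a range of 638 to 1529, and 36 of the 59 distances between consecutive ones lay between 1265 and 1520 bp. Of its 70 distances between all adjacent summits, 23 lay between 1200 and 1400 bp, 13 between 1400 and 1600 bp and 12 between 2500 and 2900 bp. The other 11 peaks scored 49 to 294, and none of them was the first or last of the row.

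**Figure D5:**
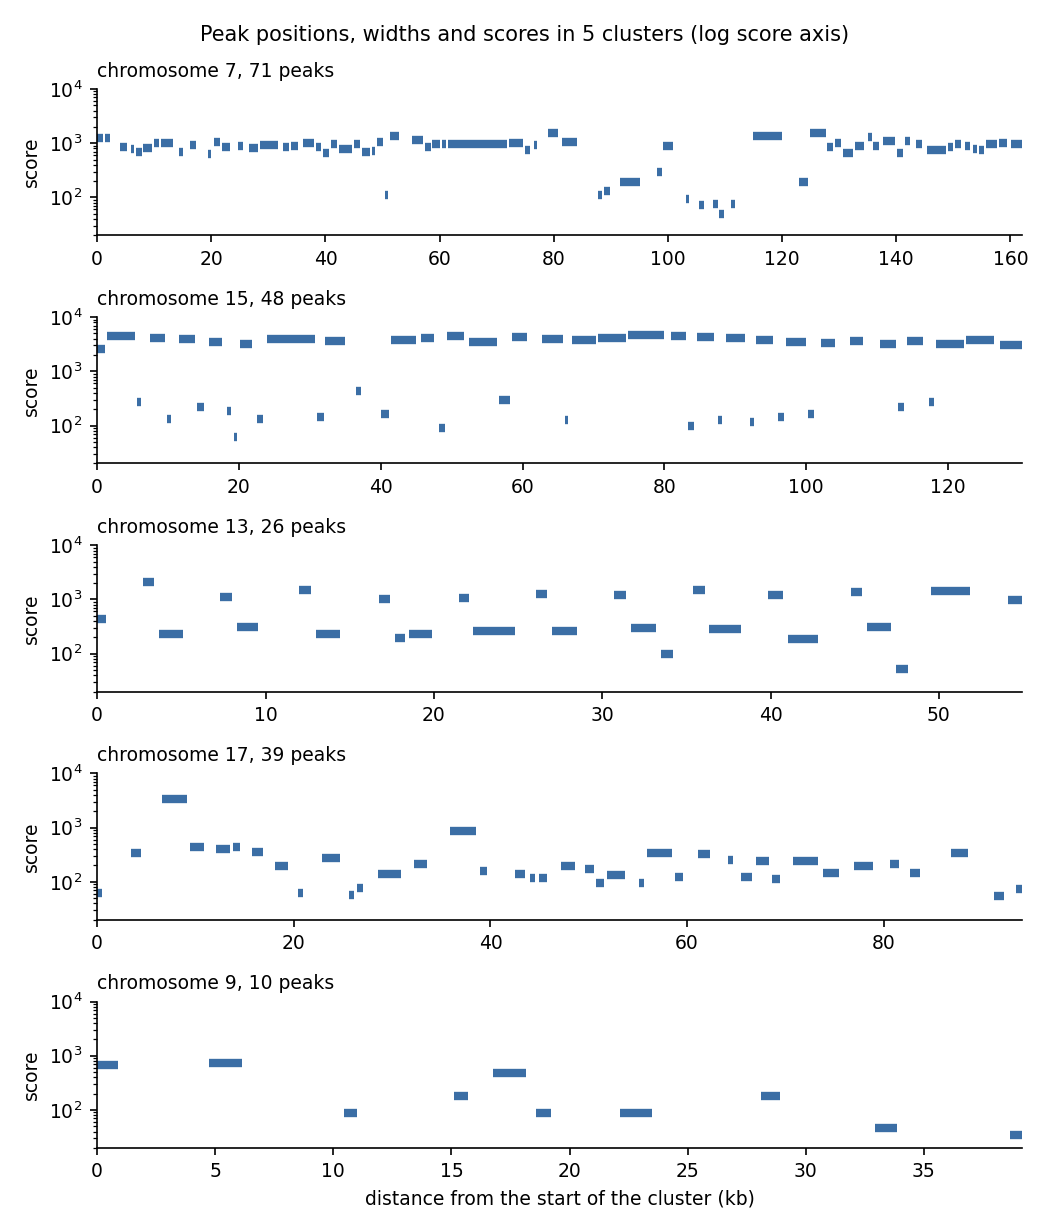
Peaks in 5 clusters, each drawn as a horizontal bar at its score (y axis, log scale, authors' units) over its width, by distance from the start of the cluster in kb (x axis). The rows on chromosomes 7, 15 (from 9808751) and 13 show repeated spacing. In each, scores are even among the strong peaks, which stand above weaker ones, 11 of 71 peaks on chromosome 7. The clusters on chromosomes 17 and 9 show no such rows.

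The authors kept 1 random placement for reads with several, so near-identical copies of a sequence would share reads, which bears on even scores and spacing. The part of such copies in these clusters was not tested.

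Clusters were found on each of the 24 chromosomes, at 2.44 per 10 Mb of interior length. Chromosome 9 had the most, 25 clusters or 4.55 per 10 Mb, followed by chromosome 3 with 24 (3.98) and chromosome 18 with 18 (3.67). Chromosome 10 had 3 (0.689), chromosome 8 had 6 (1.15), chromosome 13 had 6 (1.21) and chromosome 24 had 5 (1.24). Chromosomes with more peaks per Mb had more clusters per 10 Mb, with a Spearman's rho of 0.742 over the 24 chromosomes, as the rule itself favours. The chromosome with the most clusters did not have the strongest members. The 311 members on chromosome 9 had a median score of 143, the lowest of any chromosome, and the 40 on chromosome 10 had 465. Of those 40, 17 lay in 1 cluster with a median score of 788, while the other clusters there had 274.5 and 204. Other interior peaks of chromosomes 9 and 10 had medians of 105 and 137. On chromosome 25 the 9 clusters had a median covered share of 75.6% and their 146 peaks a median score of 604.5 and a median width of 1550 bp, both the highest of any chromosome.

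Within the interior, clusters were most frequent far from the ends. This does not hold for whole chromosomes, since the rule left out 104 dense regions that reached within 1 Mb of an end. Beyond 20 Mb from the nearest end there were 3.68 clusters per 10 Mb (113 clusters) and 72.4 interior peaks per Mb. Between 10 and 20 Mb there were 2.39 clusters per 10 Mb (114 clusters), and between 5 and 10 Mb 1.46 (35 clusters), where peaks were also fewest, at 47.3 per Mb. Between 1 and 2 Mb there were 2.29 per 10 Mb (11 clusters). Per 1000 peaks the range was narrower, from 3.08 clusters between 5 and 10 Mb to 5.08 beyond 20 Mb.

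Some clusters had another nearby. Of 272 pairs of neighbouring clusters on a chromosome, 33 were within 100 kb of each other and 99 within 1 Mb. The median distance was 1.86 Mb and the longest 32.5 Mb. The shortest was 5.03 kb, just above the joining distance, so the closest neighbours were kept apart only by that limit. Joined within 100 kb, 59 clusters formed 26 groups, of which 5 had 3 or more. The largest group spread over 430 kb of chromosome 16, from 36239751 to 36669750, with 5 clusters and 93 peaks, and included the 36-peak cluster. On chromosome 3, groups of 3 clusters lay from 23327141 to 23623760 (51 peaks) and from 1368861 to 1600300 (50 peaks). The 2 neighbouring clusters with even spacing on chromosome 15 together held 77 peaks in 281 kb.

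Dense clusters left out by the rule differed in score and cover. The 104 dense regions that reached within 1 Mb of a chromosome end had a median length of 38.1 kb and a median covered share of 50.3%. Their 1760 peaks were wider than those of the interior clusters, with a median of 1035 against 910 bp, but had a lower median score, 164 against 222.5. The 53 dense regions of chromosome 4 had a median length of 33.8 kb, close to the 34.0 kb of the interior clusters, with a higher median covered share of 60.2% and a median score of 417 over 748 peaks. Gaps under 500 bp made up 39.7% of the gaps there, against 28.0% in the interior clusters and 27.5% near chromosome ends.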

How the data were processed

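ATAC-seq of untreated wild-type embryos at 4 hpf (2 biological replicates, 1 group) was analysed from 1 peak list. The authors mapped reads to Zv10 with Novoalign (the submitters' processing notes give 3.8) and placed a read with several matches at 1 of them at random. Runs of a library were merged in SAMtools. Which sequencing runs entered the deposited peak list is not stated. Fragments of 30 to 120 bp then went into the Multi-Replica Macs ChIPSeq Wrapper, which brought the replicates to equal depth and called peaks on both together. The word nodedup in the peak names is taken to mean that duplicates stayed in. The deposited values used are the score of each peak, on a scale that is not named, and other values giving its start, end and summit in bp. Its 3 columns of fold enrichment and significance are 0 throughout.

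Starts are counted from 1. Gaps were measured between peak edges, and covered share is the summed peak width over the cluster length. Interior length excluded 1 Mb at both ends, up to the last peak. Other interior peaks were those in joined regions lying wholly over 1 Mb from both ends. Medians carry binomial order-statistic intervals and shares exact binomial ones. The joining and the search for repeated distances were tested on simulated data. Depth is unknown, and no test over samples was possible.

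The clusters named were the 10 with the most peaks, the 3 longest, the 3 with the highest and lowest covered share and median score, and that with the highest single score. Other places named were chosen after their values were seen. Members, lists and comparisons were chosen with earlier results of these data known. Sequence content, motifs and genes were planned and not run, since no Zv10 sequence or annotation was used here. Tables were handled in pandas 2.3.3 and numpy 2.4.6 under Python 3.11.15, intervals came from scipy 1.17.1, and plots from matplotlib 3.10.9.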

Additional observations from a re-analysis of the deposited data

How the results depend on the processing

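The counts, lengths, gaps and scores follow the limits of the rule, and the direction of the score difference held under the 11 alternatives run. Joined within 2.5 kb there were 96 clusters with 1404 peaks, a median gap of 590 bp, a covered share of 65.8%, a median score of 351.5 and 80.0% of members above the median of the others. Joined within 10 kb there were 835 clusters with 13181 peaks, a median length of 52.3 kb, a gap of 1960 bp, a covered share of 26.6%, a score of 166 and 63.6% above. With summits at most 5 kb apart, the values were 166 clusters, 2280 peaks, 29.6 kb, 930 bp, 46.9% covered and a score of 239. With at least 8 peaks there were 560 clusters, 6514 peaks, 26.5 kb, 1210 bp, 41.1% covered, a score of 205 and 69.2% above. With at least 15 peaks there were 99 clusters, 2119 peaks, 53.1 kb, 890 bp, 49.9% covered, a score of 279 and 76.4% above. Without peaks wider than 5 kb the length was 32.1 kb, the gap 1170 bp, the score 204 and the share above 69.1%. With chromosome 4 the covered share was 45.5% and the score 247. The other values of these 2 settings, and those with ends of 0.5 or 2 Mb, a minimum score of 40 or no peaks scoring at least 10000, stayed within 1.5 times for counts and within the intervals given for the others, apart from the gap with chromosome 4, which was 1030 bp, at the edge of its interval. No paired analysis was possible because the pooled list gives no value per replicate, and for the same reason neither replicate could be left out. Depth is unknown, so how many accessible sites were missed cannot be stated.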

Other observations

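Not every cluster stood above its surroundings. In 63 of the 293 clusters with at least 5 surrounding peaks the median score was at or below theirs. The 4 with at most 0.5-fold lay on chromosome 18 from 29949191 (125 against 577), on chromosome 3 from 59782941 (92.5 against 394), on chromosome 6 from 50414821 (168 against 350) and on chromosome 9 from 27881451 (120 against 262). They were chosen after their values were seen.

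Even scores were not confined to strong clusters. The most even cluster lay on chromosome 1 from 27854961 to 27897120, where 15 peaks had a median score of 98, quartiles of 89 and 104, and a strongest peak of 198. Its most common distance between summits, a median of 3470 bp, was shared by 8 of its 15 peaks, in 4 pairs. Over the 296 clusters the most common distance, counted in windows of 100 bp between 1 and 10 kb, joined a median of 3 pairs and 40% of the peaks. At least 8 pairs and 60% of the peaks were reached in 4 clusters, the 3 on chromosome 15 and the one on chromosome 13 described above. These thresholds were set after the data were seen.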
